A study of Mus musculus with 8 samples.

Results

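*St8sia5*, *Ctnna2*, *Masp1*, *Tmem132d* and *Eya4* are 5 of the 33696 genes counted in nuclei of the mouse optic nerve (ON). They were chosen by measured values, namely because their RNA was higher in oligodendrocytes (OLs) with *Piezo2* RNA than in OLs without it, so that difference is a property of the choice and is described here without a test. What the choice did not use is how the 5 genes are spread over cell types, whether they sit in the same OL nuclei, which other genes go with each of them, and how they stand in either genotype. These are not independent of the choice, since genes chosen within OLs are detected there and all 5 go with *Piezo2*. Single-nucleus RNA sequencing (snRNA-seq) was done on ONs of female mice at 120 days of age. The controls are *Piezo2f/f* mice, with 4 libraries numbered 1 to 4. The second genotype is *Olig2-cre;Piezo2f/f*, labelled cKO, with 4 libraries numbered 10 to 13. In each library 6 ONs were pooled, so the replicate is the library and not the mouse or the nucleus, and the mice of both genotypes carry the floxed *Piezo2* alleles. *Olig2-cre* is a knock-in that drives Cre in cells of the *Olig2* lineage, and its carriers have a changed *Olig2* allele.

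*Piezo2* encodes a mechanically gated ion channel best known from touch neurons. OLs are the cells that wrap axons of the central nervous system in myelin, and they arise from oligodendrocyte precursor cells (OPCs) by way of committed OPCs. The 5 genes belong to unrelated families. *St8sia5* encodes a Golgi enzyme that adds sialic acid to gangliosides, which are lipids of the outer cell membrane. *Ctnna2* encodes the neural alpha-catenin, which couples cadherin adhesion to actin. *Masp1* encodes a serine protease of the lectin pathway of complement. *Tmem132d* encodes a membrane protein with a single membrane span that was first described in OLs. *Eya4* encodes a transcriptional coactivator with phosphatase activity that partners homeodomain factors.

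The libraries held 39628926 to 56541132 UMIs (unique molecular identifiers, 1 for each captured RNA molecule), and 38829 barcodes were kept as nuclei, with a median of 2428 to 3351 UMIs per library. OLs were the nuclei with at least 3 UMIs of *St18*, a transcription factor gene of maturing OLs, without the markers of another type. This gave 16289 OL nuclei, 1115 to 3025 per library. The OL markers *Mog*, *Mag*, *Mobp* and *Prr5l*, which the gate did not use, together reached 6554 to 7279 CPM (UMIs of a gene per 1000000 UMIs) in these nuclei. The lists of committed OPCs (414 to 519 CPM), astrocytes (176 to 356 CPM), fibroblasts (138 to 226 CPM) and OPCs (154 to 202 CPM) were lower. The gate left out nuclei with the markers of another type, so these lower values were in part set by it. At the edge of the gate, 1574 OL nuclei had exactly 3 *St18* UMIs, 574 of 6978 in the controls and 1000 of 9311 with *Olig2-cre*. Another 2659 unassigned nuclei had 1 or 2, 960 in the controls and 1699 with *Olig2-cre*. *St18* itself was at 3253 ± 277 CPM in OLs of the controls and 2921 ± 238 CPM with *Olig2-cre* (SD, n = 4 each), with overlapping ranges. Control replicate 3 held RNA of pituitary hormone genes, with 929 CPM in its OLs. Between 1 and 12 barcodes were shared by any pair of libraries. The OL count of *Piezo2* averaged 545 ± 20.5 CPM with *Olig2-cre* and 448 ± 54.6 CPM without it (SD, n = 4 each). Since it is not lower with Cre, that genotype is called the libraries labelled cKO. UMIs are read at the 3-prime end of an RNA and do not show whether the floxed exons were removed.

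Promoter sequences of RefSeq (GRCm38.p6) were found for 2 of the 5 genes, *Ctnna2* and *Eya4*, and these are the ones shown. Their co-detection is given with the pairs of genes. Each run gives the 250 bases before the start, 5′ to 3′ on the minus strand, with every match to the E-box CANNTG, the motif of basic helix-loop-helix factors such as OLIG2, in capitals. *Ctnna2* lies at chr6:77979668-77979917 and *Eya4* at chr10:23349891-23350140.
Ctnna2: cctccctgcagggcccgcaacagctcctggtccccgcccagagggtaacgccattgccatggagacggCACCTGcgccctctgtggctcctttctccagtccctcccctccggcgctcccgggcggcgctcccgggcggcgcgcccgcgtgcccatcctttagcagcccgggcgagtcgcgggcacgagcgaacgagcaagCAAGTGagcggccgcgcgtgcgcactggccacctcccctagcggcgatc
Eya4: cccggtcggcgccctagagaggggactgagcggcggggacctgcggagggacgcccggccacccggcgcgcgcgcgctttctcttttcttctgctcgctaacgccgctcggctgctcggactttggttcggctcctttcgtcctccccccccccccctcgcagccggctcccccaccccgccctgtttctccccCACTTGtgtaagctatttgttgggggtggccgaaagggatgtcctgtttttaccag
*Ctnna2* had 2 E-box matches and *Eya4* 1, and the other *Eya4* start in the table, which overlaps this one, had 0. Among all 32851 promoters, 66.2% held an E-box match in the same length. Neither promoter held the SOX motifs ACAAAG (16.5% of all promoters) and ACAATG (10.7%) or the TEAD motif GGAATG (12.6%) on either strand. Both are rich in G and C (73.2% and 67.6%).

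All 5 genes are protein-coding in the GRCm39 annotation. *St8sia5* spans 75.4 kb on chromosome 18 (77272738 to 77348090, plus strand), *Ctnna2* 1098 kb on chromosome 6 (76858342 to 77956718, minus strand), *Masp1* 71.6 kb on chromosome 16 (23268167 to 23339779, minus strand), *Tmem132d* 651 kb on chromosome 5 (127858688 to 128510162, minus strand) and *Eya4* 248 kb on chromosome 10 (22978861 to 23226817, minus strand). No 2 of them share a chromosome. *St8sia5* does share chromosome 18 with *Piezo2* (63143284 to 63520260), and *Masp1* shares chromosome 16 with *Olig2* (91019435 to 91025567). The part of these positions in the values by genotype was not tested. In nuclei, reads from introns are counted too, so levels are compared between cell types and libraries and not between these genes of unequal length. *Lrrtm1*, a gene of a synaptic adhesion protein, lies inside *Ctnna2* on the opposite strand (chromosome 6, 77218820 to 77235200).

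Across cell types, the 5 genes had unlike patterns. *St8sia5* and *Masp1* had their highest mean in OLs, *Ctnna2* was close to its OL level in OPCs, committed OPCs and neurons, and *Tmem132d* was higher in precursors than in OLs. *Eya4* was shared by OLs and myeloid cells. The level in OLs over all 8 libraries was 54.7 ± 8.93 CPM for *St8sia5*, 2065 ± 165 CPM for *Ctnna2*, 80.7 ± 10.9 CPM for *Masp1*, 159 ± 30.9 CPM for *Tmem132d* and 49.1 ± 7.36 CPM for *Eya4* (SD, n = 8). In empty droplets the levels were lower, and OLs exceeded them by 2.41 times for *St8sia5*, 10.1 times for *Ctnna2*, 2.23 times for *Masp1*, 11.9 times for *Tmem132d* and 4.80 times for *Eya4*.

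**Figure D1:**
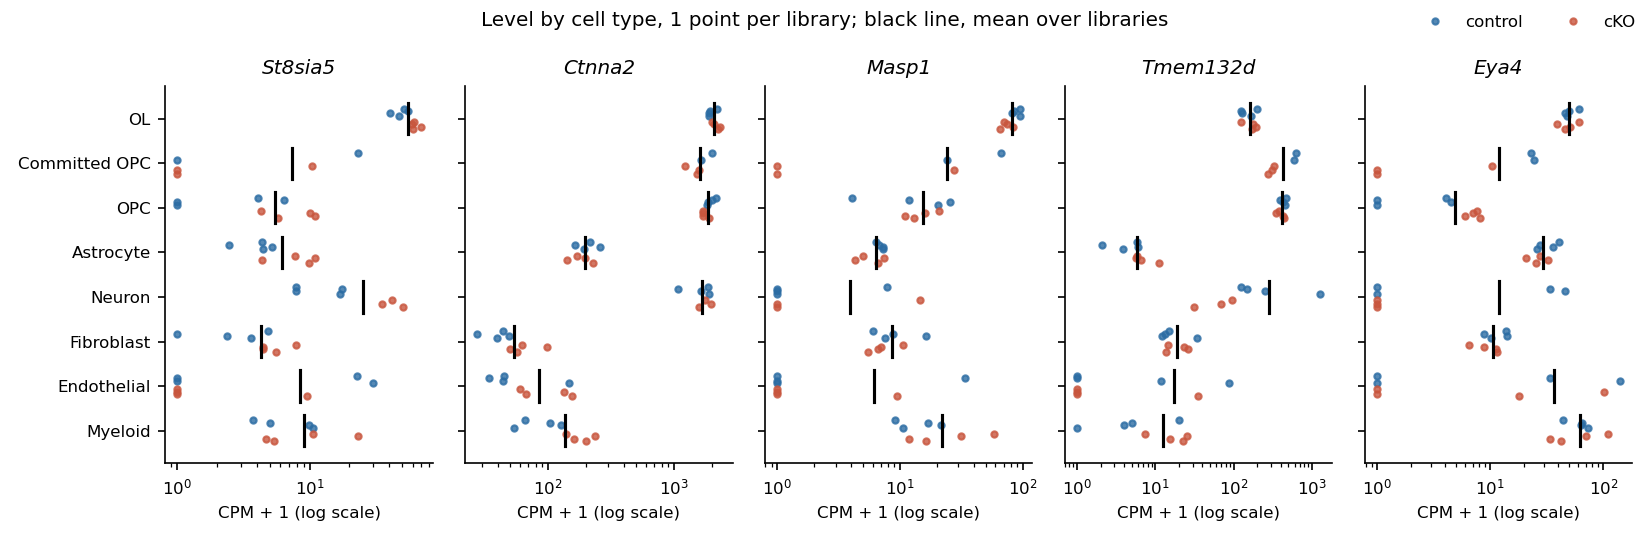
Level of each gene (CPM + 1, log axis) by cell type, with 1 point per library of at least 10 nuclei of that type, blue for control and red for cKO libraries, and a black line at the mean. *St8sia5* and *Masp1* peak in OLs, *Ctnna2* is near 2000 CPM in OLs and OPCs alike, *Tmem132d* is higher in OPCs and committed OPCs, and *Eya4* in myeloid cells overlaps OLs.

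*St8sia5* followed OLs (39.7 to 67.9 CPM) in neurons at 24.4 ± 17.1 CPM (n = 7), and the remaining types averaged 8.13 CPM or less. The neuron values differed by genotype, with 6.84 to 16.5 CPM in the controls on 5 UMIs and 34.2 to 49.7 CPM in the libraries labelled cKO on 11 UMIs. Within each genotype they lay below the OLs (39.7 to 54.6 and 58.7 to 67.9 CPM), and the difference between the genotypes was not tested. They were below the mean of empty droplets, given with the genotypes further on, in the controls and above it in the libraries labelled cKO. At an equal depth of 1000 UMIs per nucleus, 4.79% of OL nuclei had a *St8sia5* UMI against 0.370% of astrocytes and 0.681% of OPCs, and without thinning 13.5%, 1.51% and 1.31%, at median depths of 2836, 3112 and 3309 UMIs. *Masp1* in OLs (64.7 to 94.7 CPM) was followed by committed OPCs at 23.3 ± 27.2 CPM (n = 5) and myeloid cells at 21.1 ± 16.5 CPM (n = 8). Both of these means lay below the *Masp1* level in empty droplets of either genotype, so they do not exceed free RNA. The highest committed OPC sum, 66.3 CPM, came from a control library and lay below the OLs of the controls (81.4 to 94.7 CPM). In the libraries labelled cKO, committed OPCs reached 26.7 CPM and OLs started at 64.7 CPM. At equal depth, 7.46% of OL nuclei had a *Masp1* UMI against 0.459% of astrocytes.

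*Ctnna2* went down from OLs to OPCs (1855 ± 160 CPM, n = 8), neurons (1676 ± 300 CPM, n = 7) and committed OPCs (1592 ± 272 CPM, n = 5), whose ranges overlapped each with the next. A gap then separated these types from astrocytes (195 ± 37.3 CPM, n = 8), with no overlap between committed OPCs and astrocytes. *Tmem132d* was at 421 ± 165 CPM in committed OPCs and 415 ± 40.7 CPM in OPCs, above the highest OL library (198 CPM) in each of these sums. In committed OPCs it was at 600.3 ± 26.6 CPM in 2 control libraries and 302 ± 22.9 CPM in 3 labelled cKO. Its level in neurons rests on 153 nuclei and was 448 ± 548 CPM in the controls (n = 4, from 124 to 1266 CPM) and 64.6 ± 33.0 CPM in the libraries labelled cKO (n = 3, from 29.8 to 95.5 CPM), without overlap. These differences between the genotypes were not tested. *Eya4* in myeloid cells (61.6 ± 24.0 CPM, n = 8) and in OLs did not separate. Astrocytes had 28.5 ± 6.46 CPM of *Eya4* and OPCs had 3.92 CPM, from 0 to 7.18 CPM.

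The levels were tested in 1 edgeR quasi-likelihood model over the sums per library and type, with the library as a block. A call needs an adjusted p below 0.05 and a log2 fold change beyond 0.5. Over OPCs, *St8sia5* (log2 fold change 3.73 ± 0.33 SE, adjusted p = 3.0e-17), *Eya4* (3.53 ± 0.39, adjusted p = 5.6e-13) and *Masp1* (2.56 ± 0.23, adjusted p = 1.4e-16) were higher in OLs. *Tmem132d* was lower (-1.29 ± 0.14, adjusted p = 8.8e-13), and *Ctnna2* did not pass (0.25 ± 0.12, adjusted p = 0.087). The filter on low counts asked for 30.3 CPM in at least 5 sums of any type. *St8sia5*, *Masp1* and *Eya4* reached this in 8 of 8 OL sums and 0 of 8 OPC sums, so they were in this test by their level in OLs, and the counts of calls are descriptions. With that, 3 of the 5 were called higher where 22.2% of all 11490 genes were, and 1 lower where 23.9% were. Against committed OPCs, 4 were called higher (18.2% of all genes) and *Tmem132d* lower (-1.02, 11.5%), but *Tmem132d* lost its call without control replicate 3 (-0.71).

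Against astrocytes and against fibroblasts, all 5 genes were called higher in OLs (23.5% and 25.8% of all genes) and 0 lower (28.2% and 27.6%). No astrocyte sum of *St8sia5*, *Masp1* or *Tmem132d* reached the filter limit of 30.3 CPM (highest 9.98, 6.41 and 10.0 CPM). No fibroblast sum of *St8sia5*, *Masp1* or *Eya4* did either (highest 6.83, 15.2 and 13.1 CPM). Such genes were in the tests by their level in other types, so all counts of calls in this paragraph are descriptions. The log2 differences against astrocytes ran from 1.02 for *Eya4* to 5.28 for *Tmem132d*. Against myeloid cells, 4 of 5 were higher (28.2% of all genes), 0 lower (24.2%), and *Eya4* was not called (0.02 ± 0.17, adjusted p = 0.92). Against endothelial nuclei, 4 of 5 were higher (28.9%), 0 lower (17.7%), and *Eya4* did not pass (0.62 ± 0.39, adjusted p = 0.19), although it did without control replicate 3 (1.61). Against neurons, 4 of 5 were higher (27.8%), 0 lower (23.2%), and *Tmem132d* was not called (-0.31 ± 0.24, adjusted p = 0.28). With control replicate 4 left out, the sign of that last value turned (0.37). DESeq2 did not call *Ctnna2* over committed OPCs (0.44) or neurons (0.25).

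The genes whose levels over the 63 sums of library and cell type were most like each member differed between them, as judged by Pearson's r on log values over 17076 genes. They were *Pcdh9*, *Csmd2* and *Cadm2* for *Ctnna2* (0.93, 0.92 and 0.92), and *Csmd2*, *Dcc* and *Adam23* for *Tmem132d* (0.89, 0.89 and 0.88). The closest gene reached 0.71 for *St8sia5* (*Gm14820*), 0.74 for *Masp1* (*5033421B08Rik*) and 0.72 for *Eya4* (*Nuak1*). The sums share libraries and cell types, so these values are descriptions.

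To set OLs with *Piezo2* UMIs beside those without at equal depth, 1000 UMIs were drawn at random from every OL nucleus. This left 16093 nuclei, since 126 control nuclei and 70 nuclei of the libraries labelled cKO had fewer. Of these, 5654 were *Piezo2+* and 10439 *Piezo2-*, with mean library medians of 2933 and 2812 UMIs before thinning. In *Piezo2+* OLs *St8sia5* reached 70.8 ± 10.3 CPM, against 40.9 ± 11.7 CPM where *Piezo2* was missing, *Eya4* 71.9 ± 10.4 against 41.3 ± 6.90 CPM, and *Ctnna2* 2395 ± 162 against 1671 ± 154 CPM (SD, n = 8). *Masp1* was at 103 ± 25.9 and 71.1 ± 8.39 CPM, and *Tmem132d* at 177 ± 39.4 and 153 ± 29.0 CPM. The mean fold was 1.78 for *St8sia5*, 1.74 for *Eya4*, 1.44 for *Ctnna2*, 1.42 for *Masp1* and 1.15 for *Tmem132d*.

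These values chose the genes and carry no test. *St8sia5*, *Ctnna2* and *Eya4* were higher in *Piezo2+* OLs in 8 of 8 libraries. *Masp1* was higher in 7, with a log2 difference of -0.16 in cKO replicate 10, and *Tmem132d* in 7, with -0.10 in control replicate 3. The spread between libraries was narrowest for *Ctnna2* (log2 difference 0.43 to 0.66) and wide for *St8sia5* (0.22 to 1.38). Levels went up stepwise with the number of *Piezo2* UMIs. *Ctnna2* was at 1671, 2247, 2693 and 2872 CPM in nuclei with 0, 1, 2 and 3 or more *Piezo2* UMIs, and *Eya4* at 41.3, 63.8, 89.8 and 96.7 CPM. *Tmem132d* differed little between 0 and 1 UMI (153 ± 29.0 and 161 ± 37.4 CPM) and reached 242 ± 108 CPM at 3 or more, where 473 nuclei remained.

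**Figure D2:**
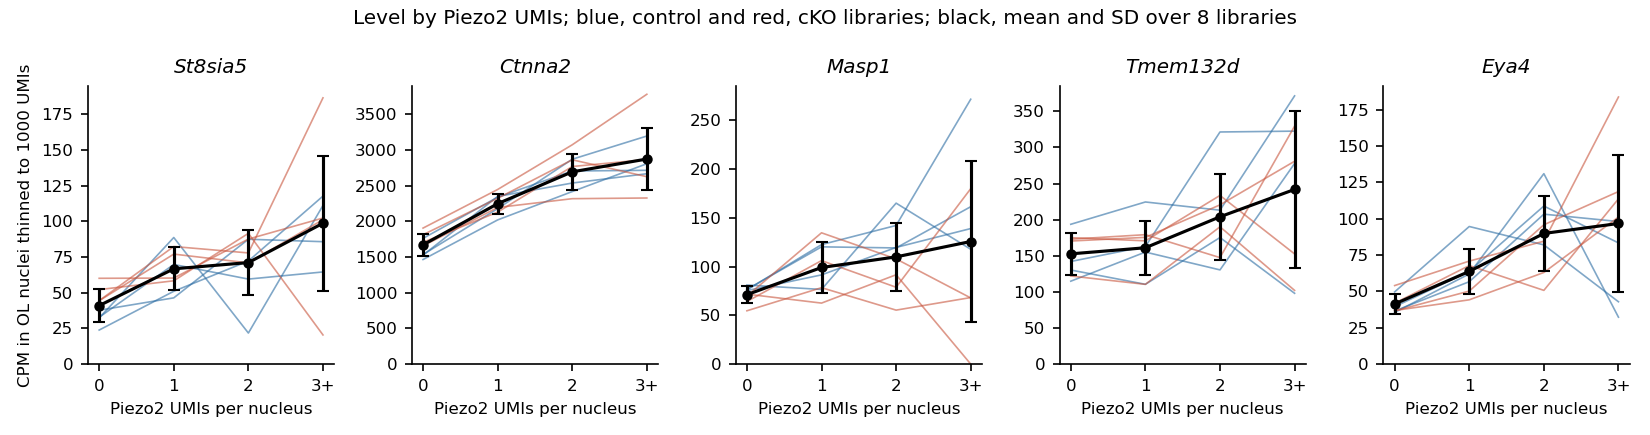
Level of each gene (CPM at 1000 UMIs per nucleus) in OL nuclei with 0, 1, 2 and 3 or more *Piezo2* UMIs. Thin lines are single libraries (blue control, red cKO) and black points the mean and SD of 8 libraries, which climb from 41.3 to 96.7 CPM for *Eya4* and from 1671 to 2872 CPM for *Ctnna2*, while single libraries cross at 3 or more UMIs.

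The difference between *Piezo2+* and *Piezo2-* OLs is given here by genotype as a description, since it is the measure that chose the genes. The mean log2 difference of *St8sia5* was 1.08 in the controls and 0.58 in the libraries labelled cKO, that of *Eya4* 0.93 and 0.67, and that of *Ctnna2* 0.59 and 0.46. For *Tmem132d* the means were 0.31 and 0.10, and for *Masp1* 0.56 and 0.45. All 5 means were smaller in the libraries labelled cKO. The study made this contrast in control ONs, and a choice made on the controls would by itself favour larger values there. The difference between the genotypes was not tested. The ranges of the 2 genotypes overlapped for each gene, from 0.48 to 0.66 in the controls and 0.43 to 0.50 in the others for *Ctnna2*, the narrowest.

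Over the 10 pairs of the 5 genes, the median odds ratio of detection in the same OL nucleus was 1.11 at 1000 UMIs, where 1 stands for independence, and 6 pairs lay above 1. Within the genotypes the median was 1.23 in the controls and 1.15 in the libraries labelled cKO. Only *St8sia5* with *Ctnna2* stood far from it (odds ratio 3.90), with 712 nuclei holding both against 559 that independence gives, and values above 1 in 8 of 8 libraries. *Ctnna2* with *Eya4* was also above 1 in 8 of 8 libraries (1.49). *Tmem132d* with *Eya4* (1.37), *Masp1* with *Eya4* (1.36) and *Masp1* with *Tmem132d* (1.16) were above 1 in 6, 7 and 7 libraries.

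The other pairs lay at or near independence. *St8sia5* with *Masp1* had 56 joint nuclei against 57.6 under independence (odds ratio 0.97), *St8sia5* with *Tmem132d* 101 against 107 (0.93) and *St8sia5* with *Eya4* 36 against 36.5 (0.98). *Ctnna2* with *Masp1* had an odds ratio of 0.97 and with *Tmem132d* of 1.06. By genotype, *St8sia5* with *Masp1* was at 1.41 in the controls (30 joint nuclei) and 0.71 in the libraries labelled cKO (26), while *St8sia5* with *Ctnna2* was at 3.97 and 3.85. These are counts of sparse UMIs in nuclei that share libraries, and no test was made of them.

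**Figure D3:**
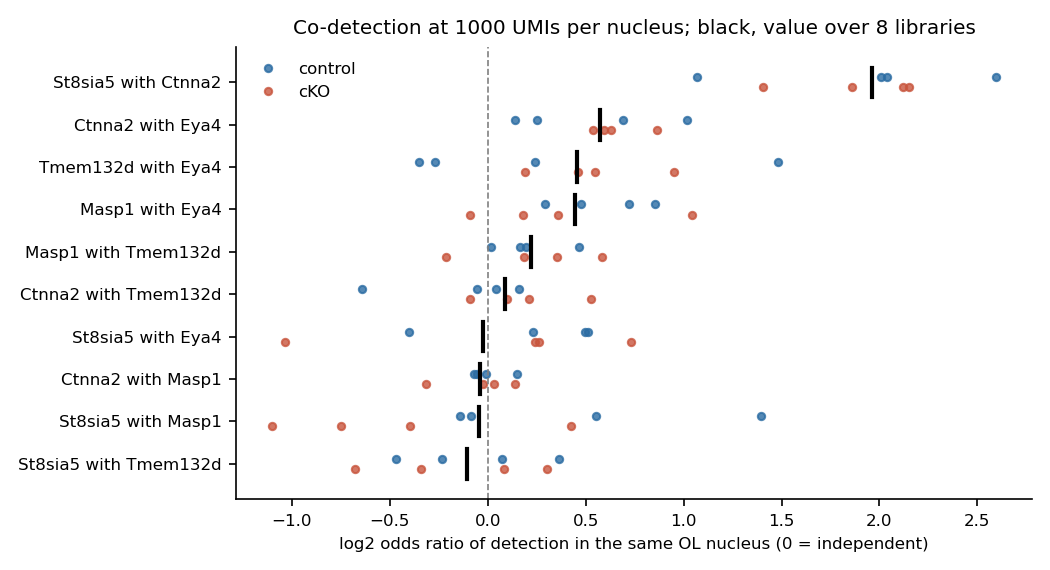
Log2 odds ratio of detection in the same OL nucleus for the 10 pairs of genes, at 1000 UMIs per nucleus. Points are libraries (blue control, red cKO) and black lines the value over 8 libraries. *St8sia5* with *Ctnna2* and *Ctnna2* with *Eya4* lie right of 0 in every library, with 1.96 and 0.58 for the 8 libraries joined. Each of the other pairs has libraries on both sides of 0.

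Where no *Piezo2* UMI was found in the nucleus before thinning (5978 nuclei), the median odds ratio of the 10 pairs was 0.96. *St8sia5* with *Ctnna2* stayed at 3.55 there, in 8 of 8 libraries, and *St8sia5* with *Masp1* was at 0.35, on 4 joint nuclei against 10.7 under independence. Counted per nucleus, 3671 OL nuclei held none of the 5 genes at 1000 UMIs, 9093 held 1, 2925 held 2 and 404 held 3 or more. The last group made up 2.44% ± 0.60 of OL nuclei per library (SD, n = 8) against 2.05% under independence, a ratio of 1.04 to 1.502 in single libraries. *Piezo2* itself was detected in 23.3% ± 5.15 of OL nuclei with none of the genes, 35.9% ± 3.69 with 1, 42.9% ± 3.75 with 2 and 57.0% ± 6.84 with 3 or more. This rise restates the contrast that chose the genes and is no separate result.

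To see which other genes went with each member, OL nuclei were split by each single gene, detected or not at 1000 UMIs, and tested across all genes with edgeR and the library as a block. These splits were chosen after the co-detection was seen, and *Piezo2* and the 5 members themselves are left out of the tests. A *St8sia5* UMI was found in 792 nuclei, a *Ctnna2* UMI in 11306, a *Masp1* UMI in 1187, a *Tmem132d* UMI in 2154 and an *Eya4* UMI in 746. Genes called higher were 0.586% of those tested for *St8sia5* (47 genes), 2.36% for *Ctnna2* (211), 0.550% for *Masp1* (44), 0.0940% for *Tmem132d* (8) and 0.164% for *Eya4* (13). Genes called lower were 0.897% (72), 1.66% (148), 0.437% (35), 0.117% (10) and 0.0506% (4) in the same order. The counts do not keep the order of the nuclei, since *Tmem132d* was found in more nuclei than *St8sia5* or *Masp1* and had fewer calls than either.

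A number of genes were called in one direction both with *St8sia5* and with *Ctnna2*, in splits that share the 712 nuclei holding both. With *St8sia5*, the long noncoding RNA *Gm32122* was at 847 against 443 CPM (log2 fold change 0.90, adjusted p = 2.6e-33), and with *Ctnna2* at 559 against 236 CPM (1.22, adjusted p = 4.0e-62). *Adgrb3*, an adhesion receptor gene, was higher with *St8sia5* (0.53) and with *Ctnna2* (1.06), as was *Cntn3*, a contactin gene (0.67 and 1.18), each past both limits in both splits. Lower in both were *Erbb4*, a neuregulin receptor gene (-1.16 and -0.80), *Kirrel3*, an adhesion gene of the immunoglobulin family (-1.56 and -1.62), *Il33*, a nuclear cytokine gene (-0.77 and -0.83), and *Opalin*, a gene of an OL membrane protein (-0.98 and -0.79). Other genes were called in one of the splits. *Tspan9*, a tetraspanin gene (1.27), and *Grik1*, a kainate receptor gene (0.70), passed both limits with *Ctnna2* but were at 0.39 and 0.37 with *St8sia5*. *Lama2*, a laminin gene, was lower with *St8sia5* (-0.54) and at -0.02 with *Ctnna2*.

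With a *Masp1* UMI, *C4b*, the complement component that the lectin pathway cleaves, was at 1065 against 739 CPM (log2 fold change 0.54, adjusted p = 1.2e-16), higher in 8 of 8 libraries. This was not particular to *Masp1*, since *C4b* was also higher, below the limit of 0.5, with *Eya4* (0.38, adjusted p = 7.8e-06), *St8sia5* (0.33, adjusted p = 5.4e-05) and *Tmem132d* (0.28, adjusted p = 1.8e-08), in 8 of 8 libraries each, and with *Ctnna2* (0.15, adjusted p = 2.5e-04) in 7. *Il33* was at 456 against 277 CPM (0.71, adjusted p = 1.0e-13), and *Dcc*, a netrin receptor gene, at 769 against 502 CPM (0.62, adjusted p = 2.7e-16). The noncoding *7630403G23Rik* was higher with *Masp1* (1.22) and lower with *St8sia5* (-2.59) and *Ctnna2* (-1.42). *Adgrb3* was lower with *Masp1* (-0.68, adjusted p = 4.1e-13), and so was *Gm32122* (-0.53).

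*Tmem132d* and *Eya4* had few calls. *Rhoj*, a gene of a small GTPase, was higher with *Tmem132d* (195 against 135 CPM, log2 fold change 0.53, adjusted p = 4.4e-07), and *Gm32122* was lower (314 against 483 CPM, -0.61, adjusted p = 3.4e-21). *Rhoj* was higher with *Eya4* as well (0.76, adjusted p = 7.8e-06), together with *Col23a1*, a membrane collagen gene (66.1 against 20.7 CPM, 1.66, adjusted p = 5.0e-06). Neither *Rhoj* nor *Col23a1* is shown to be particular to these splits. *Astn2*, an astrotactin gene, was called higher with *St8sia5* (0.78), *Ctnna2* (0.60), *Masp1* (0.67) and *Eya4* (0.71) but reached 0.31 with *Tmem132d*. *Col13a1*, another membrane collagen, was called higher with *Masp1* (1.12), *Tmem132d* (0.77) and *Eya4* (1.17). It belongs to genes known from earlier results to be higher in *Piezo2+* OLs, so it is no independent evidence.

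**Figure D4:**
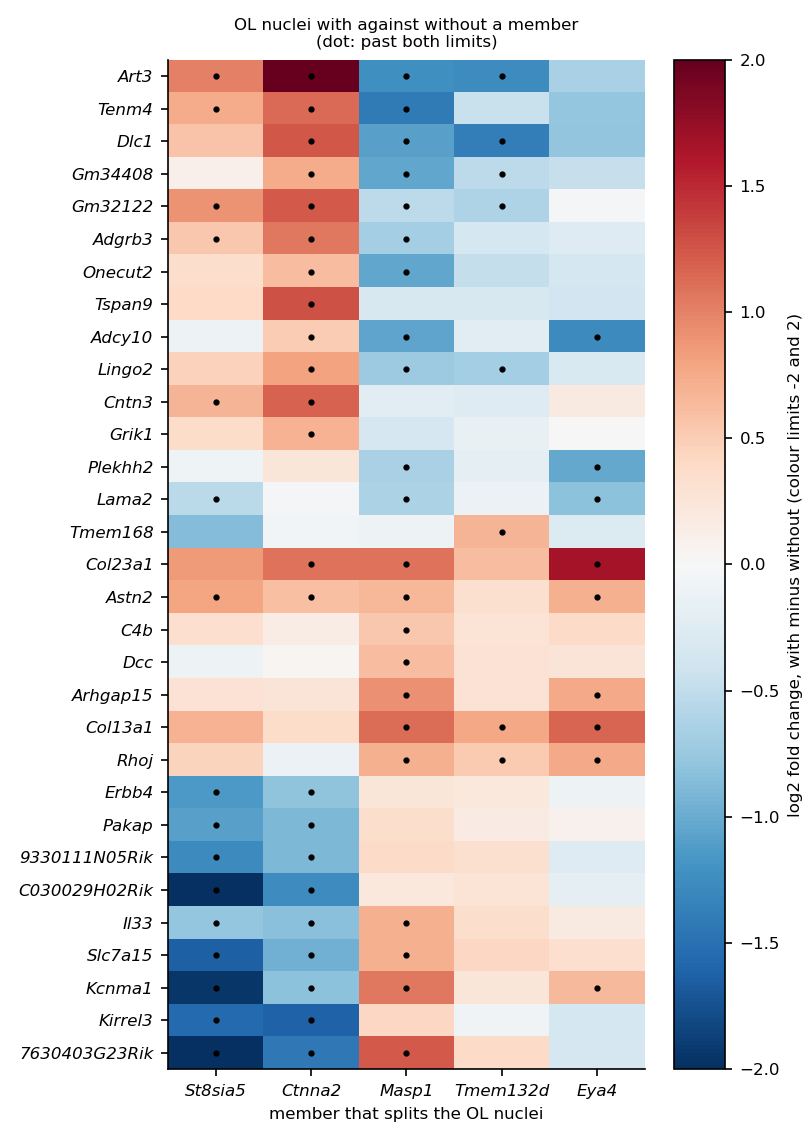
Log2 fold change (colour, limits at -2 and 2) of genes between OL nuclei with and without each of the 5 genes, for the genes that were among the 5 called with the smallest adjusted p per direction in any column, and a black dot where both limits were passed. Most upper rows are red and the lowest rows blue in the columns of *St8sia5* and *Ctnna2*, *Masp1* has the opposite colours for *Gm32122*, *Adgrb3*, *Il33* and *7630403G23Rik*, and *Astn2* is red in all 5 columns.

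*St8sia5* and *Masp1* nuclei were also set against each other, 736 with *St8sia5* and no *Masp1* UMI against 1131 with the reverse. This contrast was again chosen after the data were seen. Its nuclei are part of the 792 and 1187 nuclei of the single-gene splits, so it restates those splits in part and is no separate evidence. With edgeR, 58 genes were called higher in the *St8sia5* nuclei (2.86% of 2029 tested) and 74 lower (3.65%). These 132 calls became 338 at 2000 UMIs per nucleus and 59 in nuclei without a *Piezo2* UMI. *Gm32122* was at 871 ± 107 CPM in the *St8sia5* nuclei and 309 ± 121 CPM in the *Masp1* nuclei (SD, n = 8, log2 fold change 1.46 ± 0.10 SE, adjusted p = 4.4e-40), *Adgrb3* at 770 ± 151 and 332 ± 59.8 CPM (1.22 ± 0.11, adjusted p = 1.5e-27), and *Cntn3* at 602 ± 77.3 and 307 ± 70.9 CPM (0.92 ± 0.11, adjusted p = 6.8e-14). Further genes higher with *St8sia5* were *Grik1* (0.70), *Cyp27a1*, a sterol hydroxylase gene (1.01), *Agmo*, which cleaves ether lipids (1.13), and *S100b*, a calcium-binding protein gene (0.68).

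On the *Masp1* side, *Il33* was at 461 ± 108 CPM against 153 ± 61.3 CPM (log2 fold change -1.51 ± 0.15, adjusted p = 4.3e-22), *Opalin* at 375 ± 72.0 against 144 ± 36.5 CPM (-1.43 ± 0.15, adjusted p = 3.2e-18) and *Erbb4* at 832 ± 127 against 323 ± 44.4 CPM (-1.37 ± 0.11, adjusted p = 1.2e-33). *Kirrel3* (-1.83), the amino acid transporter gene *Slc7a15* (-2.34) and *Kcnma1*, a calcium-activated potassium channel gene (-2.89), were lower with *St8sia5* too. *C4b* did not pass (934 against 1043 CPM, -0.18, adjusted p = 0.13). *Mbp* (4394 against 4506 CPM) and *Mog* (953 against 984 CPM) were not called either, with log2 fold changes of -0.05 each. *Mal*, another myelin gene, was lower in the *St8sia5* nuclei in 8 of 8 libraries (977 against 1300.2 CPM, -0.40, adjusted p = 3.3e-06), below the limit of 0.5. *Grm3*, a glutamate receptor gene and MOL 5-6 marker, was called lower (611 against 948 CPM, -0.56, adjusted p = 1.6e-08). Both groups are OL nuclei by their markers, with 7210.1 ± 359.7 and 6654 ± 465 CPM of the OL list, higher with *St8sia5* in 7 of 8 libraries. The committed OPC list was at 587 ± 41.5 and 416 ± 105 CPM, higher with *St8sia5* in 8 of 8 libraries, the OPC list at 179 ± 69.8 and 226 ± 48.2 CPM, and the median depth before thinning at 2998 and 2769 UMIs, and their part in the calls was not tested. *Piezo2* was at 683 ± 126 CPM in the *St8sia5* nuclei and 588 ± 110 CPM in the *Masp1* nuclei. *Ctnna2* differed as well, at 3048 ± 227 against 1922 ± 222 CPM and higher with *St8sia5* in 8 of 8 libraries, so this contrast is also one between nuclei with more and less *Ctnna2*, and its part in the calls was not tested.

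Nuclei rich in the 5 genes taken as a set were those with at least 2 of them at 1000 UMIs (3329 nuclei), and poor ones had none (3671 nuclei). *Piezo2* was at 667 ± 49.7 CPM in rich and 302 ± 73.7 CPM in poor nuclei, a difference tied to the choice of the genes. Of the rich nuclei, 95.02% to 98.59% per library had *Ctnna2*, so this comparison mostly follows *Ctnna2*. It called 133 genes higher (1.98% of 6728) and 107 lower (1.59%) with edgeR. In place of these 240 calls, DESeq2 gave 141 and thinning to 2000 UMIs gave 421. *Astn2* was at 585 ± 61.9 CPM in rich and 260 ± 33.0 CPM in poor nuclei (log2 fold change 1.17 ± 0.06, adjusted p = 3.4e-76), *Cntn3* at 434 ± 49.7 and 201 ± 36.7 CPM (1.102 ± 0.07, adjusted p = 1.2e-53), and *Dgki*, a lipid kinase gene, at 2113 ± 255 and 1456 ± 200 CPM (0.54 ± 0.03, adjusted p = 1.0e-55). *Gm32122* (1.00), *Adgrb3* (0.77), *C4b* (0.54), *Grik1* (0.59), *Pkp4*, a plakophilin gene (0.52), and *Sema5a*, a semaphorin gene (1.27), were also higher. *Lrrtm1* was at 95.3 ± 26.2 against 24.4 ± 17.9 CPM (1.98). It overlaps *Ctnna2*, and whether strand was used in counting is not given in the sources used here, so its reads cannot be told apart with certainty from those of *Ctnna2*.

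Lower in rich nuclei were *Kirrel3* (189 ± 66.8 against 582 ± 199 CPM, log2 fold change -1.58 ± 0.07, adjusted p = 7.7e-119), *Erbb4* (-0.69), *C030029H02Rik* (-1.13), *Synpr*, a synaptoporin gene (-2.26), *Clmn*, a calmin gene (-0.80), and *Kit*, a receptor tyrosine kinase gene (-1.73). When the groups were set by the 4 genes other than *Ctnna2*, 41 genes were called in place of 240, and *Gm32122* (-0.30), *Adgrb3* (-0.60), *Grik1* (-0.16) and *Kit* (0.46) had the opposite sign, of which *Adgrb3* was called (adjusted p = 2.1e-05 by edgeR). In nuclei without a *Piezo2* UMI, 107 genes were called, and *Dgki* (0.39), *C4b* (0.39) and *Pkp4* (0.33) fell short of the limit of 0.5, with adjusted p of 1.0e-09, 8.8e-05 and 9.3e-04 by edgeR. *Kit* lost its call there by the adjusted p (-0.62 ± 0.25 SE, adjusted p = 0.13). *Olig2* was also called lower in rich nuclei (34.8 ± 15.4 against 50.1 ± 16.3 CPM, -0.50, adjusted p = 0.035 by edgeR), although it was lower in only 5 of 8 libraries. The OPC markers summed to 196 ± 35.1 CPM in rich and 145 ± 23.9 CPM in poor nuclei, and the committed OPC markers to 504 ± 59.4 and 351 ± 56.8 CPM, with a median of 0 and 1 UMI per OL nucleus. The astrocyte list was at 289 ± 74.7 CPM in rich and 333 ± 67.1 CPM in poor nuclei, higher in rich nuclei in 1 of 8 libraries, as was the endothelial list (12.4 and 17.8 CPM). The neuron list (10.4 and 19.6 CPM) was higher in rich nuclei in 2 of 8 libraries and the fibroblast list (207 and 208 CPM) in 4. Median depths before thinning were 2918 and 2575 UMIs. The part of these values in the results was not tested.

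In the lists of related genes, few members passed the filter on low counts in rich against poor nuclei, where 1.98% of all genes were called higher and 1.59% lower. Of 17 sialyltransferase and ganglioside genes, 5 could be tested and 1 was called higher, *St3gal4* (205 ± 30.2 against 140 ± 10.0 CPM, log2 fold change 0.56, adjusted p = 2.2e-08), with a list median of 0.24 against -0.00 over all genes. *St3gal4* was also higher in the *St8sia5* nuclei than in the *Masp1* nuclei (0.74, adjusted p = 1.2e-04). Of 12 catenins and cadherin partners, 10 were tested and 0 called by both limits, with *Ctnna3*, another alpha-catenin gene, at 1421 and 1238 CPM (0.20, adjusted p = 1.8e-06). Of 13 lectin pathway and complement genes, 2 were tested and *C4b* was called higher, while *Serping1*, the C1 inhibitor gene, was not (-0.29, adjusted p = 0.41). None of the lectin pathway genes *Masp2*, *Mbl1*, *Mbl2*, *Fcna* and *Fcnb* passed the filter on low counts. The TMEM132 family gave 1 tested gene of 4, *Tmem132b* (-0.46, not called), and the list of EYA and DACH factors and their homeodomain partners gave 2 of 10, *Eya3* and *Dach2*, neither called.

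Markers of OL stages separated the rich from the poor nuclei in part. *Klk6*, a protease gene of mature OLs, was higher in rich nuclei (306 ± 89.8 against 182 ± 75.0 CPM, log2 fold change 0.70, adjusted p = 7.1e-18), and *Trf* (0.26) and *Apod* (0.29) had the same sign below the limit of 0.5. *Opalin* (-0.65) and the MOL 5-6 marker *Jph4* (-0.76) were lower. The myelin genes *Mbp* (4585 and 4629 CPM) and *Mog* (996 and 1017 CPM) were not called (0.00 and -0.01), while *Mal*, the third gene of their list, was lower in rich nuclei in 8 of 8 libraries (1144 against 1554 CPM, -0.42, adjusted p = 2.7e-27) without reaching the limit of 0.5. All 3 tested genes of a list known from earlier results to be lower in *Piezo2+* OLs were called lower (*Pcdh15*, *Hivep2* and *Kit*), and all 3 tested genes of the list of others known to be higher were called higher (*Tnr*, *Col13a1* and *Adgrg6*), where 1.59% of all genes were called lower and 1.98% higher. Both lists were drawn from these libraries and are not independent evidence.

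The same families were compared between OLs and OPCs for the genes that reached 30.3 CPM in at least 5 sums of both types, since the others were in the test by their level in one type or in neither. *Tmem132b* was lower in OLs (103 ± 18.3 against 484 ± 109 CPM, log2 fold change -2.13), like *Tmem132d*. Among the genes of sialyltransferases and ganglioside synthesis, *St3gal4* (1.59) and *St3gal3* (1.24) were higher in OLs, and *St3gal6* (-0.95) and *St3gal5*, the synthase of the ganglioside GM3 (-0.71), were lower. *Cdh2*, the N-cadherin gene (2.36), *Ctnna1*, the epithelial alpha-catenin gene (1.00), *Cdh19* (0.85) and *Cdh20* (0.61) were higher in OLs, and *Ctnnd2*, the delta-catenin gene (-3.14), and *Ctnna3* (-0.60) were lower. *C4b* was higher in OLs (1.19, 722 ± 110 against 339 ± 89.7 CPM). Genes below that level in OLs are given by level only. *St8sia1*, which starts the b-series of gangliosides, was at 0.907 ± 0.308 CPM in OLs and 81.0 ± 15.2 CPM in OPCs, and *Eya1* at 3.64 ± 1.21 and 104 ± 14.7 CPM, the reverse of *Eya4* (49.1 and 3.92 CPM).

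Within single OL nuclei, the mean phi coefficient over 8 libraries measured how far detection of a gene was associated with that of each member. About 3758 genes detected in at least 5% of nuclei were compared, and those with the highest values were taken for each member. Among them were *Gm32122* and *Ctnna2* for *St8sia5* (0.10 and 0.09), *Gm32122*, *Adgrb3* and *Cntn3* for *Ctnna2* (0.19, 0.17 and 0.17), and *C4b*, *Il33* and *7630403G23Rik* for *Masp1* (0.09, 0.08 and 0.07). For *Tmem132d* they were *C4b*, *Rhoj* and *Erbin* (0.06, 0.04 and 0.04), and for *Eya4* *Astn2*, *Piezo2* and *C4b* (0.06, 0.06 and 0.05). *Piezo2* ranked 2 for *Eya4*, 4 for *Ctnna2*, 6 for *St8sia5*, 12 for *Masp1* and 24 for *Tmem132d*. All of these values are small, and they are given as a description.

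The genotypes were compared in OLs with edgeR over the 8 libraries. For *St8sia5* the controls (1 to 4) gave 50.6, 54.6, 39.7 and 46.4 CPM, and the libraries labelled cKO (10 to 13) gave 60.0, 58.7, 67.9 and 59.9 CPM. The 2 groups did not overlap, and the log2 fold change was 0.35 ± 0.11 SE (adjusted p = 0.42 by edgeR over all genes). For *Masp1* the controls gave 94.7, 84.3, 81.4 and 94.5 CPM, and the others 69.6, 73.5, 82.6 and 64.7 CPM. Its ranges overlapped by cKO replicate 12, and the log2 fold change was -0.30 ± 0.11 (adjusted p = 0.47). *St8sia5* thus stood higher and *Masp1* lower in the libraries labelled cKO, and neither was called. Empty droplets moved alike, with *St8sia5* at 18.9 ± 1.85 CPM in the controls and 27.4 ± 4.31 CPM in the libraries labelled cKO, and *Masp1* at 39.5 ± 4.05 and 32.9 ± 3.65 CPM. The part of this free RNA in the OL values was not tested.

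For *Ctnna2* the controls gave 2177, 1925, 1893 and 1901 CPM and the libraries labelled cKO gave 1987, 2086, 2331 and 2222 CPM, with overlap (log2 fold change 0.11 ± 0.10, adjusted p = 0.79). For *Tmem132d* the values were 198, 123, 126 and 166 CPM against 124, 177, 192 and 169 CPM (0.10 ± 0.17, adjusted p = 0.90). For *Eya4* they were 59.9, 49.0, 45.0 and 46.4 CPM against 59.4, 38.3, 49.5 and 45.1 CPM (-0.09 ± 0.14, adjusted p = 0.90). The groups of *Tmem132d* and *Eya4* covered much the same range. None of the 5 genes was called, where 12 of 14371 genes were (0.0835%), 4 higher (0.0278%) and 8 lower (0.0557%). DESeq2 called 50 genes and edgeR without the low-count filter 53, none of the 5 among them. At an unadjusted p below 0.05, 1184 genes differed, *St8sia5* and *Masp1* among them.

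*Piezo2* and *Olig2* were at 545 ± 20.5 against 448 ± 54.6 CPM (log2 fold change 0.27 ± 0.10, adjusted p = 0.55) and at 45.9 ± 2.97 against 30.8 ± 7.56 CPM (0.56 ± 0.15, adjusted p = 0.32), without overlap of the groups and without a call. No gene of the lists was called either. Closest by adjusted p (edgeR) were *Col13a1* and *Adgrg6*, both without overlap of the groups. *Col13a1* was at 27.1 ± 1.26 CPM in the controls and 16.7 ± 2.24 CPM in the libraries labelled cKO (-0.71, adjusted p = 0.076). *Adgrg6* was at 47.9 ± 2.76 and 70.2 ± 6.88 CPM (0.53, adjusted p = 0.083). Among the genes of related families, *Tmem132b* was at 117 ± 15.9 CPM in the controls and 89.6 ± 5.74 CPM in the libraries labelled cKO (-0.40, adjusted p = 0.35), *C4b* at 731 ± 147 and 712 ± 78.3 CPM (-0.05, adjusted p = 0.94) and *St3gal4* at 185 ± 10.7 and 181 ± 21.2 CPM (-0.05, adjusted p = 0.93). Of the genes that split the OLs, *Il33* was at 312 ± 18.9 and 241 ± 19.9 CPM (-0.39, adjusted p = 0.22) and *Klk6* at 178 ± 36.4 and 307 ± 48.8 CPM (0.77, adjusted p = 0.11).

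**Figure D5:**
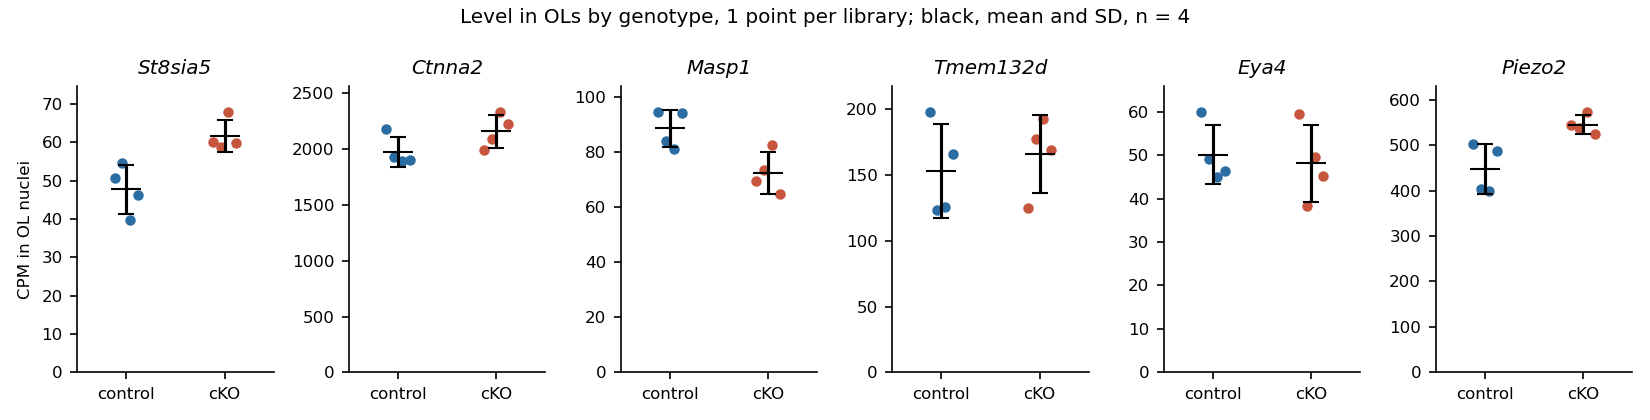
Level in OLs (CPM, linear axis from 0) of the 5 genes and *Piezo2* in 4 control (blue) and 4 cKO (red) libraries, with the mean and SD in black. The groups of *St8sia5* and *Piezo2* do not overlap, 3 of 4 cKO libraries lie below all controls for *Masp1*, and the points of *Ctnna2*, *Tmem132d* and *Eya4* overlap.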

How the data were processed

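The authors made droplet libraries of 3-prime ends (10x Next GEM 3' kit), counted them with Cell Ranger 7.0.0 on GRCm39 per the submitters' processing notes, and deposited raw UMI counts for every barcode, without normalization. The deposited gene and barcode lists hold identifiers, no score. The removal of ambient RNA, doublet removal and integration in the study's methods are not part of these counts and were not repeated.

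Nuclei were called by the OrdMag rule of Cell Ranger with 8000 expected nuclei, then by a test against empty droplets (at least 500 UMIs, false discovery rate 0.01), and filtered on genes (at least 200), mitochondrial UMIs (at most 5%) and median absolute deviations (5, or 3 for mitochondrial UMIs). Types were set by UMI sums of marker lists (at least 8 for OPCs, 5 for astrocytes, fibroblasts and neurons, 3 for other types, *St18* at 3 for OLs, *Gpr17* at 3 for committed OPCs). These cut-offs were set after the nuclei were seen. No doublet caller was run, and 4726 nuclei with markers of more than 1 type and 215 with pituitary markers were left out in its place. Another 5691 nuclei stayed unassigned.

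Counts were summed per library and group (at least 10 nuclei and 1000 counts) and tested with edgeR 4.0.16 (TMM, filterByExpr, glmQLFTest) under R 4.3.3, with DESeq2 1.42.0 as the alternative and Benjamini-Hochberg adjustment over all genes tested. Types were tested where at least 4 sums remained, which left out T cells and mural cells. Standard errors were derived from the F statistic. Scripts ran under Python 3.11.15 and were tested on simulated data with known changes. The replicate block is the library: rich and poor nuclei, or cell types, of 1 library come from the same nerves. The replicate numbers of the 2 genotypes do not overlap and pair nothing there. Per the study's methods, each library pooled the 6 nerves of 3 female mice, so p-values between genotypes measure the spread between such pools. Those between cell types measure how the difference varies across pools. In the tests that split OL nuclei within libraries, edgeR took the spread almost wholly from all genes together. Their small p-values therefore do not measure how far a single gene varies between pools.

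The genes named are the 5 members, *Piezo2*, *Olig2* and *St18* as checks, called list genes with up to 4 more per list, and for tests across all genes those with the smallest adjusted p and the same direction in every library. The genes named from the single-gene splits and from the comparison of *St8sia5* with *Masp1* nuclei, and *Il33* and *Klk6* by genotype, were chosen after their values were seen. Of the OL markers and of the genes in the splits, 1 each is not reported here. The members and lists were chosen with earlier results of these data known. Of the 33696 genes listed, 98.5% matched the annotation used for positions. Depth limits the precision: a level of 1 UMI in 1000 per nucleus is the least that thinned nuclei can show.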

Additional observations from a re-analysis of the deposited data

Results flagged for a closer look

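In 20 groups of 4 libraries (the OL level and the *Piezo2* log2 difference of each of the 5 genes in each genotype), 2 held a library far from the other 3, where chance flags about 1 in 20. *St8sia5* in OLs of cKO replicate 12 was at 67.9 CPM, above 58.7 to 60.0 CPM in the other libraries labelled cKO. *Ctnna2* in OLs of control replicate 1 was at 2177 CPM, above 1893 to 1925 CPM in the other controls. Without that replicate, the log2 fold change of *Ctnna2* between the genotypes was 0.17 (adjusted p = 0.83 by edgeR).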

How the results depend on the processing

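Under the alternatives, 178 of 204 summary values kept their direction and size class, and 1156 of 1211 values of single genes or pairs did. The cause was not tested for those that did not. By genotype, DESeq2 called 50 genes and no filter on low counts 53. For nuclei rich against poor in the 5 genes, DESeq2 called 141 genes, thinning to 2000 UMIs 421 and nuclei without a *Piezo2* UMI 107. Chosen after seeing the data, groups set without *Ctnna2* gave 41 (with *Gm32122* at -0.30, *Adgrb3* at -0.60, *Grik1* at -0.16 and *Kit* at 0.46), and groups set by 1 gene gave 119 (*St8sia5*), 79 (*Masp1*), 18 (*Tmem132d*) and 17 (*Eya4*). *St8sia5* against *Masp1* nuclei gave 338 at 2000 UMIs and 59 without *Piezo2*. For OLs against other types, DESeq2 called 9587 genes (astrocytes), 5194 (committed OPCs), 8942 (endothelial), 9422 (fibroblasts) and 9004 (neurons), and no filter 11193 (astrocytes), 10664 (fibroblasts), 9352 (myeloid) and 8338 (OPCs). *Eya4* against myeloid cells was -0.060 with DESeq2. Without thinning, the *Piezo2* difference of *Ctnna2* was 0.758. The median log2 odds ratio of the pairs was 0.294 at 2000 UMIs, 0.578 without thinning, 0.332 over every barcode of at least 500 UMIs and -0.0742 in nuclei without *Piezo2*, where *Masp1* with *Eya4* was at -0.268.

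With each library left out in turn, log2 values between genotypes ran from -0.00212 to 0.262 for *Tmem132d* and from -0.188 to 0.0199 for *Eya4*, with a sign change without control replicate 1 or cKO replicate 11 for *Eya4* (0.0196) and without cKO replicate 12 for *Tmem132d*. *Eya4* against myeloid cells ran from -0.0769 to 0.137, below 0 without control replicate 1 or cKO replicates 12 and 13 (-0.044 and -0.034), and *Tmem132d* against neurons from -0.535 to 0.368. The counts of calls ran from 8 to 16 by genotype, 205 to 242 for rich against poor and 119 to 146 for *St8sia5* against *Masp1* nuclei. Without the replicate block of the library, 163 and 110 genes were called in the last 2 comparisons in place of 240 and 132. The 20 top genes checked in each of them kept their calls. Other genes named as called there were not checked in this way. No pairing across genotypes was possible because they share no replicate number. At a median of 2428 to 3351 UMIs per nucleus, a gene at the level of *Eya4* is seen in few nuclei, which limits pairs and single-gene splits.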
